A study of Homo sapiens with 12 samples.

Results

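The 38 genes described here encode lysosomal enzymes, lysosomal membrane proteins, subunits of the lysosomal proton pump, and the TFE transcription factors that control many of them. They were listed by symbol, with no threshold on a measured value, but the list was drawn up with earlier results of these data known. Each symbol matched 1 Ensembl gene among the 58051 in a table of raw read counts from polyadenylated RNA. All libraries came from MV4-11, an established human line of acute myeloid leukaemia driven by a rearranged KMT2A gene and a FLT3 tandem duplication, so every group carries both. Cultures had received 200 nM BSJ-03-123, 200 nM YKL-06-102, 200 nM palbociclib or the vehicle DMSO at 0.1%, each for 6 h, and there were 3 libraries per group. Palbociclib is an inhibitor of CDK4 and CDK6. According to the submitters' text, BSJ-03-123 and YKL-06-102 are phthalimide conjugates with specificity for CDK6. How their structures differ is not stated in the labels. Each compound had 1 dose and 1 time, so all comparisons are at matched dose and time.

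Lysosomes degrade proteins, glycans and lipids with hydrolases that work at acid pH, and the V-ATPase pumps in the protons. TFEB, TFE3, MITF and TFEC form the MiT/TFE family of basic helix-loop-helix factors, which bind the CLEAR element, an extended E-box found near the start of many lysosomal genes. When nutrients are plentiful, the kinase complex mTORC1 on the lysosomal surface phosphorylates these factors and keeps them out of the nucleus, and CDK4 and CDK6 have been reported to phosphorylate TFEB in the nucleus. In monocytic cells, lysosomal cathepsins and lipid hydrolases also serve antigen processing and the clearance of engulfed material. RNA levels do not show where a TFE protein was in the cell.

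The sequences that bear on these genes are the E-boxes close to their starts. RefSeq promoter sequences (assembly GRCh38.p14) were matched to 29 of the 38 genes, and the 250 bases before each start were searched on both strands. The core E-box CACGTG was found in 9 of the 29 (31.0%), against 6.49% of 27305 promoters. With a T before it, TCACGTG, it was found in 8 (27.6%), against 3.38%. The palindrome TCACGTGA was found in 5 (17.2%), against 0.89%. The full CLEAR palindrome of 10 bases was found in 2, GAA and MCOLN1 (6.90%), against 0.33%. Each longer form contains the shorter ones, so these counts are nested. Windows for 6 of the 9 genes are shown as examples, and those around the E-boxes of ATP6V0D1, CD63 and CTSA are not. The windows are written 5′ to 3′ on the gene's strand with the E-box in capitals.
GAA, chr17:80101538-80101567, plus strand: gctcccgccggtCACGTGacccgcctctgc
MCOLN1, chr19:7522544-7522623, plus strand: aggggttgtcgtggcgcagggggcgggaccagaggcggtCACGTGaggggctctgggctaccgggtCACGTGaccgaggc
LAMP1, chr13:113297158-113297237, plus strand: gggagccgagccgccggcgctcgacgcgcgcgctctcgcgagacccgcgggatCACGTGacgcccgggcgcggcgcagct
NEU1, chr6:31862921-31863000, minus strand: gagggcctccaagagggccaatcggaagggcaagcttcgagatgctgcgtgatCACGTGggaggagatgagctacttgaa
CLN3, chr16:28492087-28492116, minus strand: aaaacctctgagCACGTGatgggggaacac
CTSD, chr11:1763957-1763986, minus strand: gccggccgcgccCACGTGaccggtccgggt

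A related element, the M-box TCATGTG, is known from MITF targets in melanocytes. It was found in 6 of the 29 promoters (CD63, CTSA, GPNMB, GRN, SCARB2 and TPP1, 20.7%), against 2.58% of all promoters. The windows of TPP1, CD63 and GRN are shown because the RNA of all 3 rose with YKL-06-102, with the M-box in capitals on whichever strand it lies.
TPP1, chr11:6619423-6619452, minus strand: atatagagcTCATGTGatccgtCACATGAc
CD63, chr12:55729094-55729123, minus strand: ctgttaccgcgtCACATGAgggaggccggc
GRN, chr17:44345084-44345113, plus strand: tgattctccaatCACATGAtccctagaaat
A match describes these letters in this window and does not show that a factor binds there. Of all tested genes, 12.4%, 15.6% and 15.6% rose with BSJ-03-123, YKL-06-102 and palbociclib against DMSO, and 21.3% fell with YKL-06-102. Of the 9 genes with CACGTG, 5 rose with YKL-06-102 against DMSO and 4 did not pass the test, and 3 rose with BSJ-03-123 as well as with palbociclib. Of the 20 without it, 7 rose with YKL-06-102, 3 fell, 9 did not pass the test and 1 was not tested. Of the 5 with TCACGTGA, 1 rose with YKL-06-102, against 11 of the 24 without it, and 0 rose with BSJ-03-123 or palbociclib. With 5 genes, these counts do not stand apart from the shares over all tested genes. Of the 6 with the M-box, 3 rose with YKL-06-102, SCARB2 fell, and CTSA and GPNMB did not pass the test. In 105 promoters of other genes of the pathway, CACGTG was found in 20 and the M-box in 1.

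Library totals lay between 18764307 and 25539858 counts. DMSO replicate 2 stood apart from the other DMSO libraries, at a chi-square over degrees of freedom of 5.41 and 8.18 against them, where no other replicate pair exceeded 2.76. It was the highest DMSO library for 26 of the 37 tested members (70.3%), against 36.2% of all tested genes. Counts and medians against DMSO are therefore given with and without it. So is each member whose call changed or whose called change moved by over 1.5 times without it. Leaving out a library that is highest for most members raises most of their changes against DMSO. Values and adjusted p without it show this dependence and are not separate evidence that a member rose. Of 10 myeloid markers, 9 exceeded 1 CPM (the read count scaled to library size, with TMM factors) in a library, and CD14 was between 0.0442 and 0.469 CPM. Their sum ranged from 2122 to 2143 CPM with BSJ-03-123, 2460 to 2486 with YKL-06-102, 2155 to 2188 with palbociclib and 1987 to 2021 in DMSO, and the part of this shift in the results below was not tested. Other cell types' markers were low: 0 of 6 T cell, 2 of 5 B cell, 1 of 6 erythroid and megakaryocytic, 2 of 7 stromal and epithelial (KRT8 and KRT18) and 0 of 5 melanocyte markers exceeded 1 CPM, and CD2, MS4A1, HBB, PF4, PPBP, DCN, EPCAM, KRT19 and TYR were at 0. In bulk RNA, fewer cells expressing a gene and less of its RNA per cell cannot be told apart. Whether replicates came from separate cultures is not in the labels, and p-values therefore reflect a spread between libraries that may be technical.

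Per length of transcript, the members spanned a wide range of levels in DMSO. The highest were CTSZ at 215 CPM per kb, GRN at 176, CD63 at 137, CTSC at 122 and TPP1 at 118 CPM per kb. CTSZ is a lysosomal carboxypeptidase, GRN encodes the precursor that lysosomal proteases cut into granulins, and CD63 is a tetraspanin of late endosomes and lysosomes. Among the regulators TFE3 stood at 9.87 CPM per kb, rank 29 of 38, and TFEB at 8.17 CPM per kb, rank 31. TFEC, a family gene outside the 38, was at 9.23 CPM per kb. MITF was last at 0.0608 CPM per kb, below CTSL at 0.193 CPM per kb and GPNMB, a MITF target in melanocytes, at 0.345 CPM per kb. MITF had between 1 and 10 counts in every library (76 in all 12), did not pass the filter on low counts and is the 1 member not tested.

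Against DMSO more members rose than fell with each compound. A gene is said to rise or fall only where the Benjamini-Hochberg adjusted p of edgeR's quasi-likelihood test, over all 14214 tested genes, was under 0.05. With BSJ-03-123, 12 of 37 members rose and 3 fell (32.4% and 8.11%), against 12.4% and 15.7% of all tested genes. With YKL-06-102, 16 rose and 3 fell (43.2% and 8.11%), against 15.6% and 21.3% of all tested genes. With palbociclib, 14 rose and 3 fell (37.8% and 8.11%), against 15.6% and 17.6% of all tested genes. The median log2 fold change of the members was 0.07, 0.11 and 0.07 with BSJ-03-123, YKL-06-102 and palbociclib, where that of all tested genes was 0.0075, -0.017 and 0.014. The members' medians without DMSO replicate 2 were 0.0955, 0.17 and 0.13, where those of all tested genes were 0.00698, 0.0018 and 0.00843. All 3 comparisons share the same DMSO libraries. The larger share of members called higher does not mean larger changes. The median absolute log2 fold change of called members was 0.185, 0.258 and 0.199 with BSJ-03-123, YKL-06-102 and palbociclib. For all called genes it was 0.247, 0.2745 and 0.259. Small changes pass the test more readily in genes with many counts, and the part of this in the members' share was not tested.

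No member reached a 2-fold change in any comparison. The 95% interval of the change against DMSO lay within 1.25-fold either way for 27 members under BSJ-03-123, 23 under YKL-06-102 and 28 under palbociclib. All 3 treated libraries lay above all DMSO libraries for 12, 18 and 14 members with BSJ-03-123, YKL-06-102 and palbociclib, where 17.8%, 19.5% and 20.7% of all tested genes did so. They lay below for 3, 4 and 3 members, where 19.4%, 25.2% and 21.1% of all tested genes did so. Without DMSO replicate 2, 17, 22 and 19 members rose with BSJ-03-123, YKL-06-102 and palbociclib, and 3, 2 and 3 fell. Of all genes tested in that fit 12.3%, 19.2% and 14.7% rose, and 16.1%, 19.7% and 17.3% fell.

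**Figure D1:**
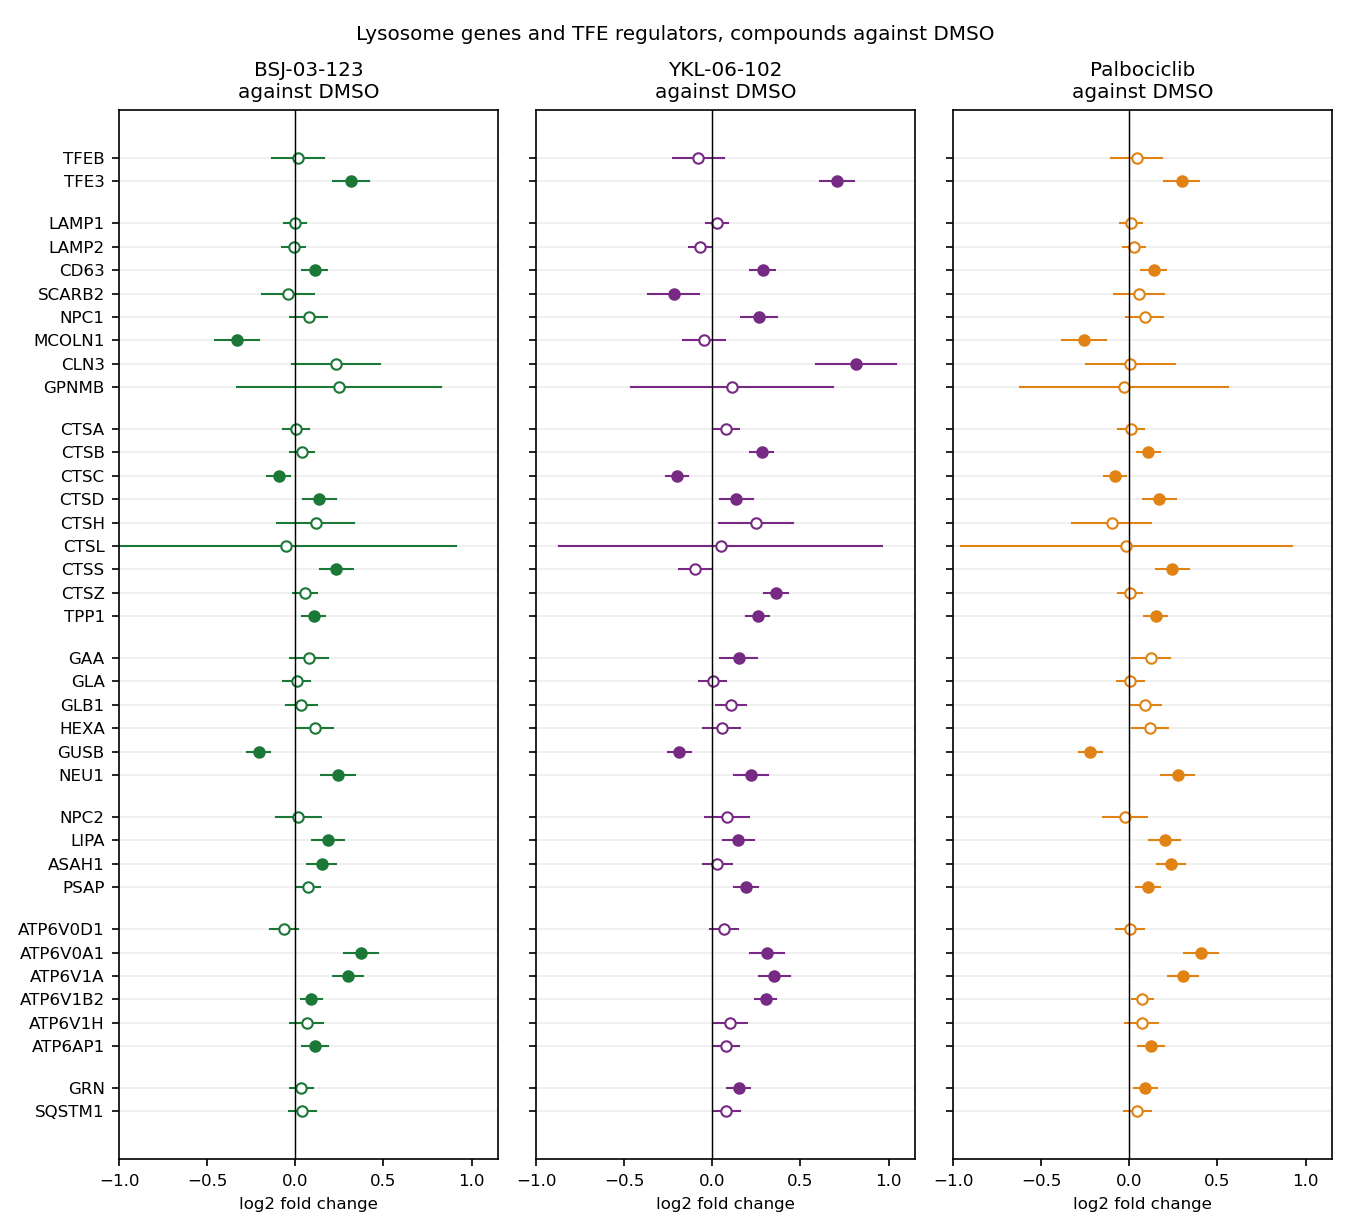
Log2 fold change of each tested member against DMSO (x axis), with its 95% interval as a line, for BSJ-03-123, YKL-06-102 and palbociclib (panels), and members grouped down the page by role. Filled points passed the test and open points did not, and the 3 panels share 3 DMSO libraries. TFE3 at 0.71 and CLN3 at 0.82 stand out with YKL-06-102, and MCOLN1 and GUSB lie left of 0 with BSJ-03-123 and palbociclib.

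By direction, 8 members rose with every compound, namely ATP6V0A1, ATP6V1A, CD63, CTSD, LIPA, NEU1, TFE3 and TPP1, and 2 fell with every compound, CTSC and GUSB (21.6% and 5.41% of members), where 6.23% of all tested genes rose and 11.8% fell with every compound. CLN3, CTSZ, GAA and NPC1 rose with YKL-06-102 and did not pass the test with BSJ-03-123 or palbociclib. ASAH1, ATP6AP1 and CTSS rose and MCOLN1 fell with BSJ-03-123 and palbociclib and did not pass the test with YKL-06-102. CTSB, GRN and PSAP rose with YKL-06-102 and palbociclib, ATP6V1B2 rose with BSJ-03-123 and YKL-06-102, and SCARB2 fell with YKL-06-102. The other 14 tested members passed the test with none of the compounds: ATP6V0D1, ATP6V1H, CTSA, CTSH, CTSL, GLA, GLB1, GPNMB, HEXA, LAMP1, LAMP2, NPC2, SQSTM1 and TFEB. Part of this pattern depends on DMSO replicate 2. Without it, CTSZ, GAA, HEXA, PSAP and SQSTM1 were also called higher with BSJ-03-123, ATP6AP1, ATP6V0D1, CTSA, CTSH, GLB1 and SQSTM1 with YKL-06-102, and ATP6V1B2, GAA, GLB1, HEXA and SQSTM1 with palbociclib, while SCARB2 lost its call with YKL-06-102. Each comparison was refitted under 13 alternatives (another scaling, filter, tool or set of libraries, a replicate block, or 1 library left out). The calls kept under all of them were 8 of 15 with BSJ-03-123, 16 of 19 with YKL-06-102 and 11 of 17 with palbociclib, and the paragraphs on roles name the rest.

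Among the regulators, TFE3 RNA rose with every compound and most with YKL-06-102, while TFEB did not pass the test with any. TFE3 (ENSG00000068323, GRCh38 chrX:49028726-49043486) had 43.0, 43.0 and 40.0 CPM in the BSJ-03-123 libraries, 56.3, 54.7 and 54.5 CPM with YKL-06-102, 41.8, 41.0 and 41.8 CPM with palbociclib, and 32.0, 35.2 and 33.9 CPM in DMSO. The YKL-06-102 libraries lay above all others and the DMSO libraries below all others, with BSJ-03-123 and palbociclib overlapping in between. Its log2 fold change against DMSO was 0.32 ± 0.049 (SE) for BSJ-03-123, 0.71 ± 0.047 for YKL-06-102 and 0.30 ± 0.048 for palbociclib (adjusted p = 1.0e-05, 5.8e-13 and 1.6e-05, edgeR, n = 3 libraries per group). TFEB (ENSG00000112561, GRCh38 chr6:41683978-41736259), the family member best studied in lysosome formation, had 19.4, 21.1 and 18.3 CPM with BSJ-03-123, 17.4, 19.1 and 18.5 CPM with YKL-06-102, 20.4, 19.7 and 19.7 CPM with palbociclib, and 18.5, 21.4 and 17.9 CPM in DMSO. All 4 groups overlapped, apart from YKL-06-102 and palbociclib, whose libraries did not. The 95% intervals of its log2 fold change against DMSO were -0.13 to 0.16 with BSJ-03-123, -0.22 to 0.06 with YKL-06-102 and -0.10 to 0.19 with palbociclib. MITF averaged 0.291 ± 0.0504 CPM with BSJ-03-123, 0.361 ± 0.100 with YKL-06-102, 0.184 ± 0.122 with palbociclib and 0.293 ± 0.161 in DMSO (SD, n = 3), and at this depth no difference was detectable.

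TFEC, the family gene outside the 38 and one known from myeloid cells, moved with TFE3 in direction. It had 77.6, 73.2 and 78.9 CPM with BSJ-03-123, 93.6, 95.4 and 99.1 CPM with YKL-06-102, 72.4, 68.7 and 64.5 CPM with palbociclib, and 63.3, 57.2 and 63.1 CPM in DMSO. The treated libraries all lay above the DMSO libraries, those of YKL-06-102 highest. Its log2 fold change against DMSO was 0.33 ± 0.048 for BSJ-03-123, 0.65 ± 0.046 for YKL-06-102 and 0.17 ± 0.048 for palbociclib (adjusted p = 4.0e-06, 2.7e-12 and 0.0068). The palbociclib call was lost without DMSO replicate 2 (adjusted p = 0.0506) and without palbociclib replicate 1 (adjusted p = 0.0759).

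**Figure D2:**
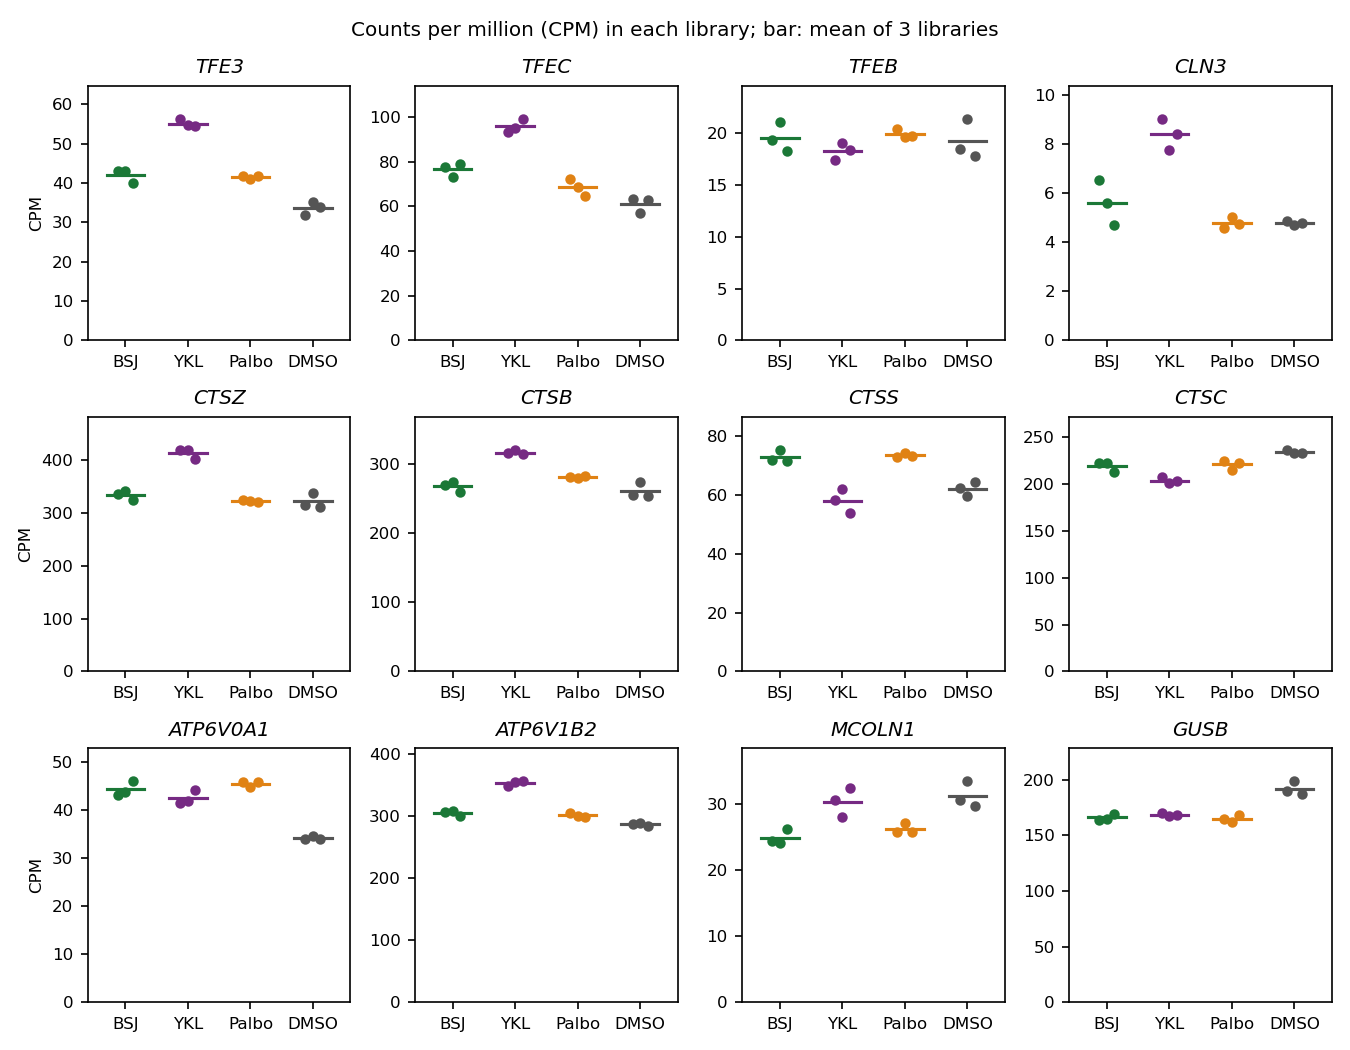
CPM (y axis, from 0) in each library of the 4 groups (x axis: BSJ for BSJ-03-123, YKL for YKL-06-102, Palbo for palbociclib, and DMSO), with the mean of 3 libraries as a bar, for 11 members and TFEC. The YKL-06-102 libraries of TFE3 at 54.5 to 56.3 CPM lie above all others, and those of CTSS at 53.9 to 61.9 CPM lie below those of BSJ-03-123 and palbociclib.

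Of the 8 membrane proteins and channel genes, 1 rose and 1 fell with BSJ-03-123, 3 rose and 1 fell with YKL-06-102, and 1 rose and 1 fell with palbociclib. The counts by role rest on few genes and stand beside 12.4%, 15.6% and 15.6% of all tested genes higher, and 15.7%, 21.3% and 17.6% lower, with BSJ-03-123, YKL-06-102 and palbociclib, so 1 of 8 lies near the share over all genes. CLN3 (ENSG00000188603, GRCh38 chr16:28474111-28495575), the membrane protein mutated in juvenile Batten disease, had 6.52, 5.60 and 4.72 CPM with BSJ-03-123, 9.01, 7.77 and 8.40 CPM with YKL-06-102, 4.59, 5.04 and 4.72 CPM with palbociclib, and 4.87, 4.68 and 4.78 CPM in DMSO. The YKL-06-102 libraries lay above all others, and the other 3 groups overlapped. CLN3 rose by a log2 fold change of 0.82 ± 0.11 with YKL-06-102 (1.76-fold, adjusted p = 6.5e-07, edgeR). Its changes of 0.23 ± 0.12 with BSJ-03-123 and 0.0037 ± 0.12 with palbociclib did not pass the test (adjusted p = 0.17 and 0.99). CLN3 had 1575 counts in all libraries and shares 567 exon bases with APOBR on the opposite strand, which had 39971, and the strand setting of the counting is not given in the sources used here. APOBR rose by 0.24 for BSJ-03-123, 0.17 for YKL-06-102 and 0.38 for palbociclib, and its part in the CLN3 values was not tested. Without BSJ-03-123 replicate 3 the APOBR change with BSJ-03-123 was 0.15. CLN3 also shares 2480 exon bases with AC138894.1 on the same strand, which had 0 counts.

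MCOLN1 (ENSG00000090674, GRCh38 chr19:7522626-7534009) encodes the lysosomal calcium channel TRPML1, through which released calcium activates calcineurin towards TFEB. It had 24.4, 24.1 and 26.2 CPM with BSJ-03-123, 30.5, 28.0 and 32.4 CPM with YKL-06-102, 25.8, 27.1 and 25.7 CPM with palbociclib, and 30.5, 33.4 and 29.7 CPM in DMSO. The BSJ-03-123 and palbociclib libraries lay below all DMSO libraries, and those of YKL-06-102 overlapped DMSO. MCOLN1 fell by 0.33 on the log2 scale with BSJ-03-123 and fell by 0.26 with palbociclib (SE 0.062 and 0.060, adjusted p = 0.00012 and 0.0012), and its change of -0.05 ± 0.058 with YKL-06-102 did not pass the test. It shares 6 exon bases with PNPLA6, which had 39827 counts against 7472 for MCOLN1 and rose with BSJ-03-123 and palbociclib.

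CD63 rose by 0.11 ± 0.035 for BSJ-03-123, 0.29 ± 0.035 for YKL-06-102 and 0.14 ± 0.035 for palbociclib, and averaged 182 ± 6.12, 206 ± 3.08, 186 ± 1.99 and 169 ± 7.80 CPM (SD) with BSJ-03-123, YKL-06-102, palbociclib and DMSO. The BSJ-03-123 call was lost under 4 of the 13 alternatives (adjusted p up to 0.158, without DMSO replicate 3). NPC1, the cholesterol exporter mutated in Niemann-Pick disease type C, had 40.9, 46.2 and 43.7 CPM with YKL-06-102 and 36.4, 36.6 and 35.7 CPM in DMSO, without overlap, and rose by 0.27 ± 0.050. RMC1, which shares 604 exon bases with NPC1 on the opposite strand, fell by 0.25 with YKL-06-102. SCARB2, the receptor that carries glucocerebrosidase to lysosomes, had 14.9, 16.1 and 13.3 CPM with YKL-06-102 and 16.9, 17.6 and 17.1 CPM in DMSO, and fell by 0.22 on the log2 scale (SE 0.071, adjusted p = 0.014). That call was lost under 4 alternatives, among them leaving out DMSO replicate 2 (adjusted p = 0.0679) and YKL-06-102 replicate 3 (adjusted p = 0.181). LAMP1 and LAMP2, the abundant glycoproteins that line the lysosomal membrane, stayed within 235 to 251 CPM and 271 to 308 CPM over all 12 libraries and passed no test against DMSO. GPNMB averaged 1.17 ± 0.328 CPM with BSJ-03-123, 1.05 ± 0.335 with YKL-06-102, 0.955 ± 0.0533 with palbociclib and 0.949 ± 0.277 in DMSO (SD, n = 3).

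Cathepsins and the other peptidases moved in both directions. Of 9, 3 rose and 1 fell with BSJ-03-123, while 4 rose and 1 fell with YKL-06-102 as well as with palbociclib. CTSZ (ENSG00000101160, GRCh38 chr20:58995185-59007247) had 336, 341 and 325 CPM with BSJ-03-123, 419, 418 and 403 CPM with YKL-06-102, 325, 322 and 321 CPM with palbociclib, and 315, 338 and 312 CPM in DMSO. The YKL-06-102 libraries stood above all others, and those of BSJ-03-123 and palbociclib overlapped DMSO. CTSZ rose by 0.36 ± 0.032 with YKL-06-102 (adjusted p = 4.6e-10). Its changes of 0.05 ± 0.033 with BSJ-03-123 and 0.0031 ± 0.033 with palbociclib did not pass the test, and without DMSO replicate 2 the BSJ-03-123 change was 0.09 (adjusted p = 0.0223).

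CTSB, a cysteine protease active in the lysosome and in apoptosis, averaged 267 ± 7.34 CPM with BSJ-03-123, 316 ± 3.14 with YKL-06-102, 281 ± 1.65 with palbociclib and 260 ± 10.9 in DMSO (SD, n = 3). It rose by 0.28 ± 0.032 with YKL-06-102 and 0.11 ± 0.032 with palbociclib. The palbociclib call was lost without DMSO replicate 1 (adjusted p = 0.0803) or replicate 3 (adjusted p = 0.0642). TPP1, the aminopeptidase mutated in late infantile neuronal ceroid lipofuscinosis, averaged 453 ± 4.93, 504 ± 16.4, 467 ± 12.3 and 421 ± 11.9 CPM with BSJ-03-123, YKL-06-102, palbociclib and DMSO, with each treated group above DMSO. It rose by 0.11, 0.26 and 0.15 (SE 0.032 each), and the BSJ-03-123 call was lost without DMSO replicate 1 (adjusted p = 0.117) and without BSJ-03-123 replicate 3 (adjusted p = 0.0637). CTSD, the main lysosomal aspartic protease, had 159, 188 and 158 CPM in DMSO, where replicate 2 lay as high as the treated libraries (181 to 196 CPM), so every treated group overlapped DMSO. It rose by 0.14, 0.14 and 0.17 with BSJ-03-123, YKL-06-102 and palbociclib, and these calls were lost under 5, 2 and 1 alternatives, in each case without DMSO replicate 1 (adjusted p = 0.193, 0.138 and 0.0527). Without DMSO replicate 2 its changes were 0.22, 0.25 and 0.26.

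CTSS (ENSG00000163131, GRCh38 chr1:150730196-150765957), the cysteine protease that trims the invariant chain for antigen presentation, rose with BSJ-03-123 and palbociclib, and its change with YKL-06-102 did not pass the test. It had 71.8, 75.3 and 71.7 CPM with BSJ-03-123, 58.4, 61.9 and 53.9 CPM with YKL-06-102, 73.0, 74.2 and 73.2 CPM with palbociclib, and 62.4, 59.8 and 64.3 CPM in DMSO. BSJ-03-123 and palbociclib libraries lay above all DMSO libraries, and YKL-06-102 libraries overlapped DMSO on its lower side. CTSS rose by 0.23 ± 0.046 with BSJ-03-123 and 0.24 ± 0.045 with palbociclib (adjusted p = 0.00023 and 9.6e-05), and its change of -0.10 ± 0.046 with YKL-06-102 did not pass the test (adjusted p = 0.10). CTSC (ENSG00000109861, GRCh38 chr11:88293592-88337787), the dipeptidyl peptidase that activates granule serine proteases in myeloid cells, had 223, 222 and 213 CPM with BSJ-03-123, 207, 201 and 203 CPM with YKL-06-102, 225, 216 and 223 CPM with palbociclib, and 236, 234 and 233 CPM in DMSO. All treated libraries lay below DMSO. It fell by 0.10, 0.20 and 0.08 on the log2 scale with BSJ-03-123, YKL-06-102 and palbociclib (adjusted p = 0.020, 5.1e-06 and 0.038), and the BSJ-03-123 and palbociclib calls were lost under 5 and 6 alternatives, among them the use of library totals alone at adjusted p = 0.209 and 0.390. CTSA and CTSH passed no test against DMSO, but without DMSO replicate 2 they were higher with YKL-06-102 by 0.14 and 0.34 (adjusted p = 0.00085 and 0.0175). CTSL, at 0.142 to 0.597 CPM, was too low for a difference to be detectable.

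Of the 6 glycosidase and sialidase genes, 1 rose and 1 fell with BSJ-03-123, 2 rose and 1 fell with YKL-06-102, and 1 rose and 1 fell with palbociclib. GUSB (ENSG00000169919, GRCh38 chr7:65960684-65982314), β-glucuronidase, had 164, 165 and 169 CPM with BSJ-03-123, 170, 167 and 168 CPM with YKL-06-102, 164, 162 and 168 CPM with palbociclib, and 190, 199 and 187 CPM in DMSO. All 9 treated libraries lay between 162 and 170 CPM, below every DMSO library. GUSB fell by 0.21, 0.19 and 0.22 on the log2 scale (SE 0.032 each, adjusted p = 9.1e-06, 2.1e-05 and 2.9e-06) with BSJ-03-123, YKL-06-102 and palbociclib. GUSB has pseudogene copies in the genome that can share its reads, so its level is uncertain. NEU1, the lysosomal sialidase, had 60.3, 60.4 and 55.7 CPM with BSJ-03-123, 59.9, 56.2 and 57.5 CPM with YKL-06-102, 59.5, 61.4 and 59.8 CPM with palbociclib, and 49.8, 52.1 and 47.0 CPM in DMSO. Here every treated library lay above every DMSO library, and NEU1 rose by 0.24, 0.22 and 0.27. GAA, the acid α-glucosidase deficient in Pompe disease, averaged 60.6 ± 0.0621, 63.8 ± 2.74, 62.7 ± 1.73 and 57.2 ± 5.78 CPM with BSJ-03-123, YKL-06-102, palbociclib and DMSO, and rose with YKL-06-102 by 0.15 ± 0.052. Its highest DMSO library, replicate 2 at 63.9 CPM, overlapped the treated groups. Without that library GAA was higher by 0.17, 0.26 and 0.21 with BSJ-03-123, YKL-06-102 and palbociclib (adjusted p = 0.0055, 8.2e-06 and 0.00028). The YKL-06-102 call was lost without DMSO replicate 1 (adjusted p = 0.160), DMSO replicate 3 (0.128) or YKL-06-102 replicate 3 (adjusted p = 0.0933). GLA, α-galactosidase A, stayed at 90.6 to 96.8 CPM in all 12 libraries, and GLB1 and HEXA passed no test with all libraries. Without DMSO replicate 2, GLB1 was higher by 0.18 with YKL-06-102 and 0.14 with palbociclib (adjusted p = 0.00045 and 0.0069), and HEXA by 0.14 with BSJ-03-123 and 0.15 with palbociclib (adjusted p = 0.0377 and 0.0224).

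In lipid handling, of 4 genes, BSJ-03-123 gave 2 higher, YKL-06-102 gave 2 and palbociclib gave 3, and none fell. LIPA, the acid lipase that frees cholesterol from its esters, averaged 72.4 ± 3.47, 70.4 ± 3.01, 73.1 ± 0.715 and 63.6 ± 1.78 CPM with BSJ-03-123, YKL-06-102, palbociclib and DMSO, without overlap with DMSO. It rose by 0.18, 0.15 and 0.20 (adjusted p = 0.0015, 0.0073 and 0.00052), and it shares 65 exon bases with IFIT2. ASAH1, acid ceramidase, had 96.4, 88.5 and 86.4 CPM with BSJ-03-123, 82.9 to 83.2 CPM with YKL-06-102, 93.9, 96.1 and 97.8 CPM with palbociclib, and 82.3, 79.4 and 82.8 CPM in DMSO. All treated libraries lay above DMSO, those of YKL-06-102 by the least. ASAH1 rose by 0.15 ± 0.040 with BSJ-03-123 and 0.24 ± 0.040 with palbociclib, the BSJ-03-123 call was lost without BSJ-03-123 replicate 1 (adjusted p = 0.0798), and the change of 0.03 ± 0.040 with YKL-06-102 did not pass the test. PSAP, the precursor of the saposins that present lipids to their hydrolases, averaged 286 ± 4.37, 311 ± 6.39, 293 ± 3.57 and 272 ± 13.6 CPM with BSJ-03-123, YKL-06-102, palbociclib and DMSO. It rose by 0.19 ± 0.033 with YKL-06-102 and 0.11 ± 0.033 with palbociclib, the palbociclib call being lost under 4 alternatives (adjusted p up to 0.106, without DMSO replicate 3). Its BSJ-03-123 change without DMSO replicate 2 was 0.11 (adjusted p = 0.0032). NPC2, the luminal partner of NPC1, passed no test.

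The V-ATPase is built from a membrane sector, V0, and a catalytic sector, V1. Of the 6 V-ATPase genes, BSJ-03-123 gave 4 higher, YKL-06-102 gave 3 and palbociclib gave 3, and none fell. ATP6V0A1 (ENSG00000033627, GRCh38 chr17:42458844-42522611), the membrane subunit a, had 43.2, 43.9 and 46.1 CPM with BSJ-03-123, 41.6, 41.9 and 44.2 CPM with YKL-06-102, 45.9, 44.9 and 45.8 CPM with palbociclib, and 34.1, 34.7 and 34.1 CPM in DMSO. The lowest treated library, at 41.6 CPM, lay above the highest DMSO library, at 34.7 CPM. The log2 fold changes were 0.37 ± 0.047, 0.31 ± 0.046 and 0.41 ± 0.046 (adjusted p = 3.5e-07, 3.4e-06 and 4.5e-08) with BSJ-03-123, YKL-06-102 and palbociclib. ATP6V1A, the catalytic subunit A, had 75.1, 82.6 and 81.5 CPM with BSJ-03-123, 82.6, 84.4 and 81.5 CPM with YKL-06-102, 78.4, 83.7 and 78.2 CPM with palbociclib, and 66.6, 63.7 and 64.4 CPM in DMSO. It likewise did not overlap DMSO and rose by 0.30, 0.35 and 0.30. ATP6V1B2, the B subunit, had 307, 309 and 300 CPM with BSJ-03-123, 349, 355 and 357 CPM with YKL-06-102, 305, 301 and 299 CPM with palbociclib, and 287, 289 and 284 CPM in DMSO.

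The YKL-06-102 libraries of ATP6V1B2 stood above all others, and those of BSJ-03-123 and palbociclib overlapped each other above DMSO. It rose by 0.30 ± 0.028 with YKL-06-102 (adjusted p = 1.1e-09) and 0.09 ± 0.029 with BSJ-03-123, while 0.07 ± 0.029 with palbociclib missed the threshold (adjusted p = 0.0505, and 0.0376 without DMSO replicate 2). The BSJ-03-123 call was lost under 5 alternatives (adjusted p up to 0.107, without BSJ-03-123 replicate 2). ATP6AP1, an accessory subunit, averaged 179 ± 1.25, 175 ± 1.10, 181 ± 4.67 and 166 ± 9.70 CPM with BSJ-03-123, YKL-06-102, palbociclib and DMSO. It rose by 0.11 with BSJ-03-123 and 0.12 with palbociclib, calls lost under 6 and 3 alternatives (adjusted p up to 0.161 and 0.0754, both without DMSO replicate 3). ATP6V0D1 and ATP6V1H, the V0 subunit d and the V1 regulatory subunit H, passed no test against DMSO. Without DMSO replicate 2, ATP6AP1 and ATP6V0D1 were each higher by 0.15 with YKL-06-102 (adjusted p = 0.00020 and 0.00035).

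GRN averaged 421 ± 2.42, 457 ± 3.07, 438 ± 7.05 and 411 ± 19.2 CPM with BSJ-03-123, YKL-06-102, palbociclib and DMSO, and DMSO replicate 2, at 432 CPM, was the DMSO library nearest to the treated ones. It rose by 0.15 ± 0.032 with YKL-06-102 (adjusted p = 0.00034) and 0.09 ± 0.032 with palbociclib (adjusted p = 0.028). The palbociclib call was lost under 6 alternatives, among them without any 1 palbociclib library and without DMSO replicate 1 or 3 (adjusted p up to 0.202). SQSTM1, the autophagy adaptor p62, ranged from 203 to 228 CPM over all libraries and passed no test. Without DMSO replicate 2 it was higher by 0.09, 0.15 and 0.10 with BSJ-03-123, YKL-06-102 and palbociclib (adjusted p = 0.0265, 0.00013 and 0.0154). It shares 1582 exon bases with MRNIP on the opposite strand, which had 6427 counts against 57906.

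**Figure D3:**
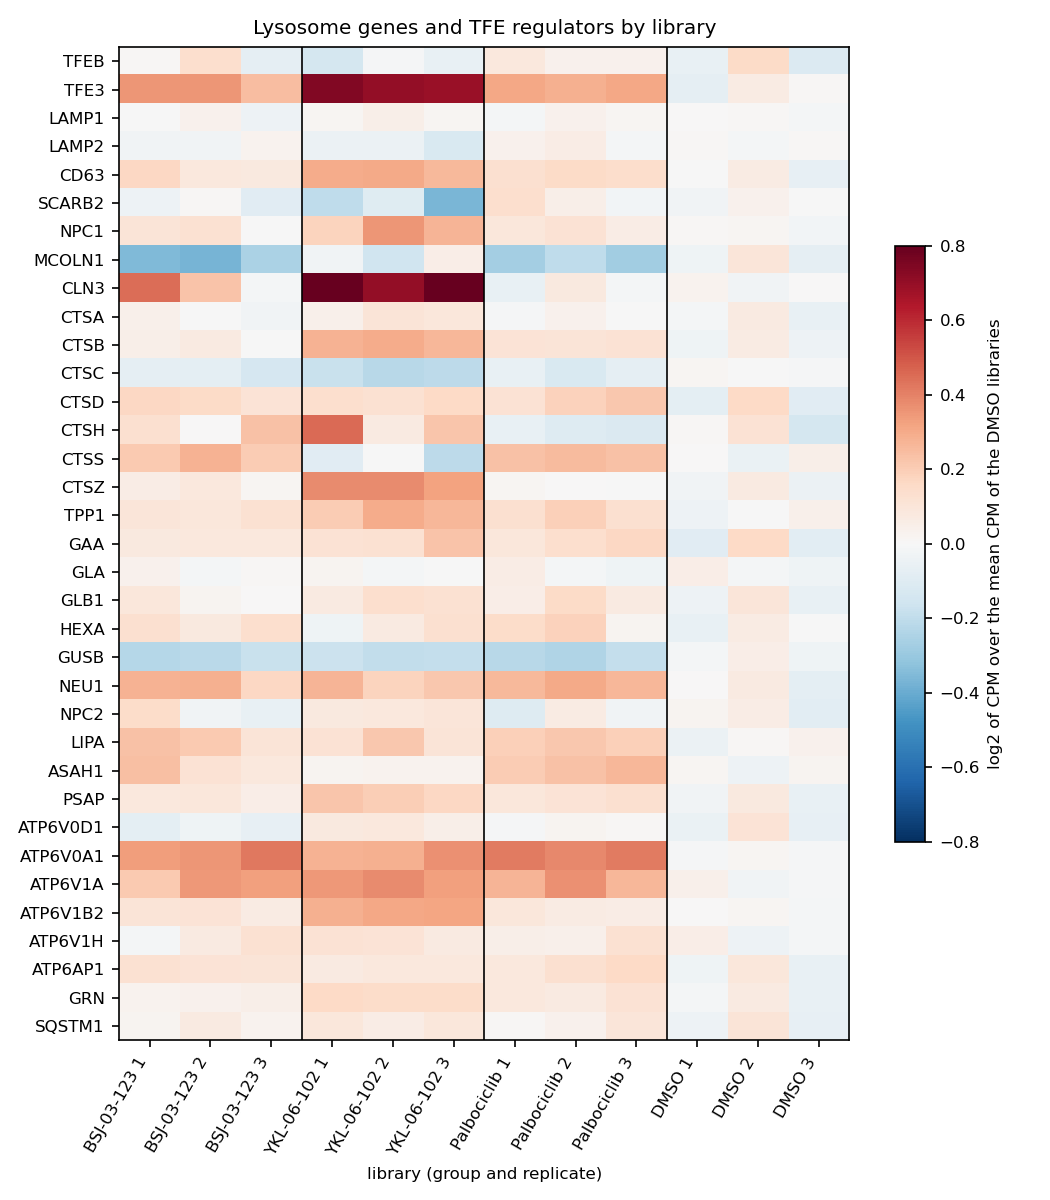
Log2 ratio of CPM in each of the 12 libraries (columns, by group and replicate) to the mean CPM of the DMSO libraries, for the 35 members that averaged 4 CPM or more in DMSO (rows, by role). Red is above and blue below the DMSO mean. TFE3 and CLN3 are darkest in the YKL-06-102 columns, MCOLN1 and GUSB are blue in the BSJ-03-123 and palbociclib columns, and DMSO replicate 2 is redder than the other DMSO columns for most rows.

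Set directly against palbociclib, YKL-06-102 gave 10 members higher and 5 lower (27.0% and 13.5% of 37), where 12.7% and 11.9% of all tested genes rose and fell. Against BSJ-03-123 it gave 12 higher and 3 lower (32.4% and 8.11%), where 10.4% and 9.74% of all tested genes did so. Both comparisons share the YKL-06-102 libraries. All YKL-06-102 libraries lay above those of palbociclib for 15 members and below for 7, where 20.1% and 20.9% of all tested genes did so, and above those of BSJ-03-123 for 13 and below for 6, where 17.6% and 18.0% did so. The members' median log2 fold change was 0.03 against palbociclib and 0.05 against BSJ-03-123, where that of all tested genes was -0.0099 and -0.0052. In both comparisons ATP6V1B2, CD63, CLN3, CTSB, CTSZ, MCOLN1, NPC1, TFE3 and TPP1 were higher, and ASAH1, CTSC and CTSS lower, with YKL-06-102.

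TFE3 was higher with YKL-06-102 by 0.41 ± 0.045 against palbociclib and 0.39 ± 0.045 against BSJ-03-123 (adjusted p = 3.4e-08 and 1.3e-07, edgeR, n = 3). TFEC was higher by 0.48 ± 0.045 and 0.33 ± 0.045 (adjusted p = 1.6e-09 and 2.6e-06). CLN3 was higher by 0.81 ± 0.11 and 0.58 ± 0.11, CTSZ by 0.36 ± 0.032 and 0.31 ± 0.032, ATP6V1B2 by 0.23 ± 0.028 and 0.21 ± 0.028, CTSB by 0.17 ± 0.032 and 0.24 ± 0.032, and MCOLN1 by 0.21 ± 0.059 and 0.28 ± 0.061. For TFE3, TFEC, CLN3, CTSZ, ATP6V1B2 and CTSB the YKL-06-102 libraries lay above every library of the other 3 groups. CTSS fell by 0.34 with YKL-06-102 against palbociclib and fell by 0.33 against BSJ-03-123 (SE 0.045 each, adjusted p = 8.5e-07 and 2.4e-06), the lowest value of any member in either comparison. ASAH1 fell by 0.21 and fell by 0.12. By role, 0 of the 6 glycosidase and sialidase genes passed the test against palbociclib or BSJ-03-123, where 24.7% and 20.1% of all tested genes did so. With 6 genes, a count of 0 does not stand apart from these shares. The medians of the 6 genes were 0.0065 and 0.0073.

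Some calls were lost when 1 library was left out or a setting was changed. Against palbociclib LAMP2, SCARB2, CTSC, CTSH and TPP1 lost the call under at least 1 alternative: LAMP2 under 6 (adjusted p up to 0.356, without YKL-06-102 replicate 3), CTSC under 3 (up to 0.109, without palbociclib replicate 1), SCARB2 without YKL-06-102 replicate 3 (adjusted p = 0.0753) or palbociclib replicate 1 (adjusted p = 0.0579), CTSH without YKL-06-102 replicate 1 (adjusted p = 0.0914) and TPP1 without palbociclib replicate 3 (adjusted p = 0.0571). Without palbociclib replicate 1 or YKL-06-102 replicate 3, 2 members were lower in place of 5, and without YKL-06-102 replicate 2 it was 3. Of all genes tested in these fits, 6.87%, 7.19% and 7.35% were lower, in place of 11.9%. Against BSJ-03-123, CTSC and ASAH1 lost the call under 6 and 7 alternatives, and leaving out YKL-06-102 replicate 1, 2 or 3 or BSJ-03-123 replicate 1 or 2 left 1 member lower in place of 3 (adjusted p up to 0.194 for CTSC and 0.440 for ASAH1). In these fits 5.54% to 6.67% of all tested genes were lower, in place of 9.74%. Against palbociclib and BSJ-03-123, 10 and 13 calls of 15 each were kept under all 13 alternatives.

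**Figure D4:**
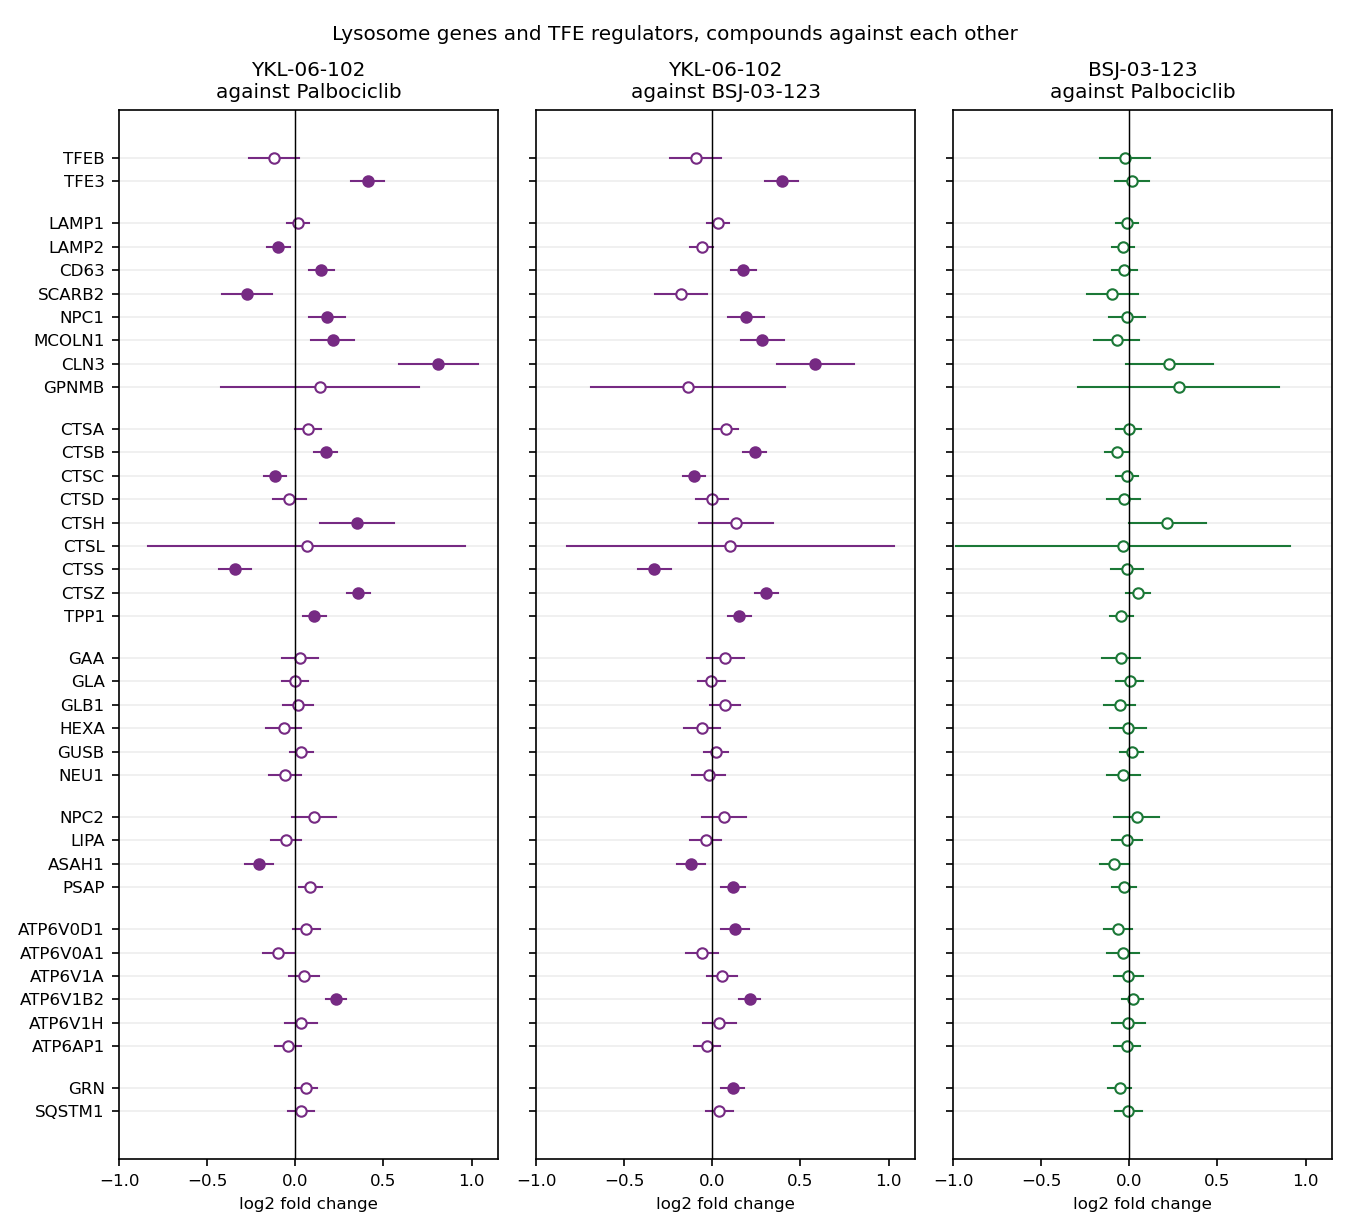
Log2 fold change of each tested member (x axis) with its 95% interval, for YKL-06-102 against palbociclib, YKL-06-102 against BSJ-03-123 and BSJ-03-123 against palbociclib (panels), in the same row order by role as in the plot against DMSO. Filled points passed the test. TFE3, CLN3, CTSZ and ATP6V1B2 lie right of 0 and CTSS left of 0 in the 2 panels of YKL-06-102, and every point in the panel of BSJ-03-123 against palbociclib is open.

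BSJ-03-123 against palbociclib gave 0 calls among the 37 members, where 0.155% of all tested genes rose and 0 fell. The members' median log2 fold change was -0.014, where that of all tested genes was 0.00016, and 28 members lay below 0 and 9 above. By unadjusted p, ASAH1 and CTSB were under 0.05, the lowest p being 0.0379 (adjusted p = 0.58), and DESeq2 and limma-voom called 0 members too. All 3 BSJ-03-123 libraries lay above those of palbociclib for 2 members and below for 5, against 8.01% and 7.20% of all tested genes. The 95% interval of the difference lay within 1.25-fold either way for 33 of 37 members and within 1.5-fold for 35, so differences larger than this lay outside the intervals for those genes. For TFE3 the difference was 0.02 with an interval of -0.08 to 0.11, for CTSS -0.01 with -0.10 to 0.08, for GUSB 0.01 with -0.05 to 0.08, and for ATP6V0A1 -0.04 with -0.13 to 0.06. CLN3 and CTSH had wider intervals of -0.02 to 0.47 and -0.0038 to 0.44. The low genes CTSL and GPNMB could not be bounded closely.

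Genes of the same pathway outside the 38 were taken from 6 lists of 137 genes, of which 129 were tested. Of these 129, 28 rose and 11 fell with BSJ-03-123, 33 rose and 15 fell with YKL-06-102, and 41 rose and 13 fell with palbociclib. These are 21.7%, 25.6% and 31.8% higher, where 12.4%, 15.6% and 15.6% of all tested genes rose, and 8.53%, 11.6% and 10.1% lower, where 15.7%, 21.3% and 17.6% fell. Among 33 further hydrolases and cofactors, 10 rose and 2 fell with BSJ-03-123, 10 rose and 4 fell with YKL-06-102, and 15 rose and 4 fell with palbociclib. SGSH, the heparan N-sulfatase, had 12.9, 12.8 and 12.1 CPM with YKL-06-102 and 6.60, 5.41 and 6.89 CPM in DMSO, without overlap. It rose by 1.02 ± 0.096 with YKL-06-102, and in BSJ-03-123 libraries by 0.51 ± 0.10. FUCA1, the α-fucosidase, had 46.1, 49.3 and 72.8 CPM with palbociclib and 35.9, 36.1 and 35.3 CPM in DMSO, and rose by 0.64 ± 0.10. Without palbociclib replicate 3, its highest library, the change was 0.41 (adjusted p = 4.6e-06), and the BSJ-03-123 libraries had 44.3, 47.0 and 46.3 CPM.

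Of 25 tested membrane proteins and transporters, 5 rose and 3 fell with BSJ-03-123, 9 rose and 4 fell with YKL-06-102, and 5 rose and 3 fell with palbociclib. The counts by list stand beside 12.4%, 15.6% and 15.6% of all tested genes higher, and 15.7%, 21.3% and 17.6% lower. Near those shares lie the 16.7% of V-ATPase subunits below that rose with YKL-06-102 and the 16.7% of sorting genes that rose with BSJ-03-123. SLC15A3, a lysosomal peptide and histidine transporter, rose by 0.86 ± 0.094 with YKL-06-102 (13.1 ± 0.884 CPM, against 7.10 ± 1.10 CPM in DMSO, SD, n = 3). CD36, a scavenger receptor in the same family as SCARB2, rose by 0.26 with BSJ-03-123 and by 0.50 with YKL-06-102. ABCA2, a lipid transporter, fell by 0.15 with BSJ-03-123 and fell by 0.46 with YKL-06-102. Among 12 further V-ATPase subunits, 0 rose and 1 fell with BSJ-03-123, 2 rose and 1 fell with YKL-06-102, and 1 rose and 0 fell with palbociclib. Those that rose with YKL-06-102 were TCIRG1, the a3 subunit, by 0.15 ± 0.036 and ATP6V1E1 by 0.10 ± 0.035, a call lost without DMSO replicate 1 (adjusted p = 0.146) or 3 (adjusted p = 0.0921) and a change of 0.16 without replicate 2. Among 18 sorting genes, 3 rose and 1 fell with BSJ-03-123, 4 rose and 1 fell with YKL-06-102, and 8 rose and 1 fell with palbociclib. VPS39, of the tethering complex HOPS, rose by 0.19 with each compound. IGF2R, the mannose 6-phosphate receptor that delivers hydrolases, rose by 0.16 with BSJ-03-123 and 0.15 with palbociclib. With YKL-06-102 against DMSO, IGF2R fell, at a log2 fold change of -0.09, a call lost under 10 of 13 alternatives (adjusted p up to 0.332). Its log2 fold change with YKL-06-102 against palbociclib was -0.24 ± 0.032.

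Of 24 tested genes for the mTORC1 and folliculin control of TFE proteins, TFEC among them, 3 rose and 4 fell with BSJ-03-123, 3 rose and 5 fell with YKL-06-102, and 5 rose and 5 fell with palbociclib, shares of 12.5% to 20.8% that lie near those of all tested genes. RHEB, the GTPase that activates mTORC1, fell by 0.22, 0.27 and 0.29 with BSJ-03-123, YKL-06-102 and palbociclib, and TSC2, the subunit of the complex that switches RHEB off, rose by 0.13, 0.16 and 0.14. The TSC2 call was lost without DMSO replicate 3 with BSJ-03-123 (adjusted p = 0.0839) and palbociclib (adjusted p = 0.0507), and without BSJ-03-123 replicate 3 (adjusted p = 0.104). TSC2 shares 778 exon bases with PKD1 and 402 with NTHL1 on the opposite strand. RRAGD, a Rag GTPase that presents TFE factors to mTORC1, had 3.61, 4.16 and 4.58 CPM with BSJ-03-123, 4.34, 3.88 and 3.79 CPM with YKL-06-102, 4.06, 3.98 and 4.34 CPM with palbociclib, and 5.44, 5.89 and 6.02 CPM in DMSO. All treated libraries lay below DMSO, and RRAGD fell by 0.49, 0.53 and 0.49. FNIP2, a folliculin partner, had 1.76, 1.91 and 1.60 CPM with BSJ-03-123, 1.11, 1.66 and 1.69 CPM with YKL-06-102, 1.42, 1.59 and 0.868 CPM with palbociclib, and 3.19, 3.03 and 2.82 CPM in DMSO. It fell by 0.78, fell by 1.02 and fell by 1.20. FLCN, FNIP1, MTOR and RPTOR passed no test against DMSO, and PPP3R1, the regulatory subunit of calcineurin, fell by 0.16, 0.21 and 0.13 with BSJ-03-123, YKL-06-102 and palbociclib, the palbociclib call being lost under 7 alternatives (adjusted p up to 0.169, with library totals) and its change being -0.19 without DMSO replicate 2.

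Of 17 tested autophagy genes, BSJ-03-123 gave 7 higher, YKL-06-102 gave 5 and palbociclib gave 7 (41.2%, 29.4% and 41.2%), and none fell. Of all tested genes 12.4%, 15.6% and 15.6% rose, and 15.7%, 21.3% and 17.6% fell. NBR1, a cargo receptor related to SQSTM1, rose by 0.32 ± 0.038, 0.37 ± 0.037 and 0.43 ± 0.037 with BSJ-03-123, YKL-06-102 and palbociclib. ATG9A, a membrane protein that seeds the autophagosome, rose by 0.19 with BSJ-03-123 and by 0.51 with YKL-06-102. ULK1, the kinase that starts autophagy, rose by 0.36 with YKL-06-102. Between compounds, YKL-06-102 gave 14 genes higher and 20 lower than palbociclib and 17 higher and 10 lower than BSJ-03-123 over the 6 lists (10.9%, 15.5%, 13.2% and 7.75%, where 12.7%, 11.9%, 10.4% and 9.74% of all tested genes did so), and BSJ-03-123 against palbociclib gave 0 calls of 129. The targeted kinases' own RNA was also measured: CDK6 rose by 0.19, 0.16 and 0.14 and CDK4 fell by 0.42, 0.36 and 0.45 with BSJ-03-123, YKL-06-102 and palbociclib.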

How the data were processed

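Polyadenylated RNA of MV4-11 cells was sequenced as 12 libraries, 3 per group, prepared with the TruSeq Stranded mRNA chemistry named in the labels. The authors deposited 1 table of whole-number counts of reads for each Ensembl gene, not normalized. Per the submitters' processing notes, Trimmomatic 0.36, STAR 2.5.2b, HTSeq and hg38 were used, while no source used here gives the HTSeq version, the annotation release or the strand setting. Gene IDs were named from GENCODE 29 (57447 of 58051).

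Genes passing edgeR's filterByExpr (minimum count 10, minimum total count 15) numbered 14214 and held 99.92% of counts. A single fit took in all 12 libraries with edgeR 4.0.16 (R 4.3.3, TMM factors, quasi-likelihood test, 2-sided, 8 residual degrees of freedom), and 6 contrasts were tested with Benjamini-Hochberg adjustment over all tested genes. SEs and 95% intervals are Wald values from that fit. Levels between genes are CPM per kb of 1 annotated transcript per gene, that of best APPRIS rank and the longest on ties. The spread between replicate libraries beyond the counts' sampling noise gave a common biological coefficient of variation of 3.08%. Intervals cover what 3 libraries per group show, and reads had no molecular identifiers.

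Alternatives were DESeq2 size factors, library totals, no filter, DESeq2 1.42.0, limma-voom (limma 3.58.1), only the 2 groups compared, a replicate block, and each library left out. On simulated counts for YKL-06-102 against DMSO with 200 changed genes, 80% of genes changed 1.25-fold and 100% of those changed 1.5-fold were called among 13934, and 14 unchanged genes were called. In the same simulation of BSJ-03-123 against palbociclib, with 13943 genes, 94% and 100% were called, with 11 unchanged genes. Genes low in DMSO were not among those changed, and all simulated libraries followed 1 trend of spread with level, without an outlying DMSO library. For YKL-06-102 against DMSO, 200 is also far fewer than the 5249 genes called in the data. The rates therefore do not describe low members such as CTSL and GPNMB.

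The members and the pathway lists were chosen with earlier results of these data known. All members may be named, and of each other list up to 4 called genes per contrast by smallest p where the average log2 CPM was 2 or more, any gene of the mTORC1 and folliculin list, CDK4, CDK6 and markers. Genes that share exon bases with a member are named for that overlap.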

Additional observations from a re-analysis of the deposited data

How the results depend on the processing

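Over 81 calls of members, 1053 values under alternatives were computed. Direction and call were kept by 968, the call was lost in 85 and none reversed, and 58 calls were kept under every alternative run. With no filter on low counts, 1 member was lower with YKL-06-102 than with BSJ-03-123, in place of 3, where 3.61% of all 28826 genes then tested were lower. Leaving out 1 library at a time, between 7 and 17 members rose and 2 to 3 fell with BSJ-03-123 against DMSO, 14 to 22 rose and 2 to 4 fell with YKL-06-102 against DMSO, and 9 to 19 rose and 2 to 3 fell with palbociclib against DMSO. Of all genes tested in those fits, 9.07% to 12.3%, 13.2% to 19.2% and 11.6% to 14.7% rose. The shares that fell were 13.9% to 16.1%, 16.0% to 19.7% and 15.4% to 17.3%. In the same way, 9 to 11 members were higher and 2 to 5 lower with YKL-06-102 than with palbociclib, 12 to 13 higher and 1 to 3 lower with YKL-06-102 than with BSJ-03-123, and 0 in either direction between BSJ-03-123 and palbociclib. Of all tested genes, 11.0% to 12.7% were higher and 6.87% to 9.94% lower with YKL-06-102 than with palbociclib. Against BSJ-03-123 these shares were 8.60% to 10.5% and 5.54% to 7.03%. Between BSJ-03-123 and palbociclib they were at most 0.0895% and 0.0138%. The count of 7 with BSJ-03-123 came without DMSO replicate 1 or BSJ-03-123 replicate 1, where 9.37% and 9.91% of all tested genes rose. The count of 9 with palbociclib against DMSO came without DMSO replicate 1, where 12.3% rose. Deviations of same-numbered libraries correlated at -0.162 to 0.228. For BSJ-03-123 against DMSO the values were 0.0806, 0.228 and 0.203, where libraries of unlike number gave -0.211 to 0.0504. Every other comparison had both signs among same-numbered libraries, so the replicate number shows no pairing across all groups. With a replicate block 12 members rose with BSJ-03-123 against DMSO, 17 with YKL-06-102 and 14 with palbociclib, every call being kept and GLB1 added with YKL-06-102. With CPM scaled by library totals alone 17, 23 and 21 members rose with BSJ-03-123, YKL-06-102 and palbociclib, where 20.1%, 20.2% and 23.9% of all tested genes rose, and the median of all tested genes moved to 0.0512, 0.0208 and 0.0621. Over 118 calls of other pathway genes, 125 of 1534 alternative values lost the call and none reversed. MITF, CTSL and GPNMB are limited by depth, and CLN3 by its overlap with APOBR.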
